A study of Mus musculus with 15 samples.

Results

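Cytochrome P450 enzymes are encoded by a large gene family. Its genes were followed here through RNA-seq of 15 mouse liver libraries that combined a construct, LbNOX or luciferase, with a gavage of ethanol or water. The family was taken as every row of the deposited table whose symbol is Cyp with a family number, a subfamily letter and a gene number, except Cyp7a1, Cyp7b1, Cyp8b1, Cyp27a1, Cyp2e1, Cyp4a10 and Cyp4a14. That rule gave 78 of 16330 genes, in 28 subfamilies, and 3 of them are named as pseudogenes. LbNOX is an oxidase of bacterial origin that oxidises NADH with oxygen and leaves water, and luciferase, a light-producing enzyme, stands as the control construct. The groups were LbNOX after ethanol (n = 3, M13 to M15), LbNOX after water (n = 4, M6 to M9), luciferase after ethanol (n = 3, M10 to M12) and luciferase after water (n = 5, M1 to M5). Liver was taken 6 h after gavage in every group. The design text speaks of wild-type or ChREBP mice, whereas titles and table header give luciferase and LbNOX, which were followed. Strain, age, the route of the constructs and the ethanol dose are not given in the sources used here, and the labels do not say that libraries came from separate animals, so p-values measure the spread between these libraries.

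P450 enzymes are heme proteins that insert an oxygen atom into their substrates with electrons from NADPH, passed on by the reductase Por or, in mitochondria, by ferredoxin. In liver the families named Cyp1 to Cyp3 clear drugs and other foreign compounds and are induced through the receptors AhR, CAR and PXR, while Cyp4 enzymes hydroxylate fatty acids under PPARA. Other members make or break down steroids, retinoic acid, vitamin D and oxysterols, and Cyp26a1 is the main enzyme that removes retinoic acid.

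The 250 bases before the transcription start of 3 members are shown, because Cyp26a1 and Cyp2c29 were both higher after ethanol in luciferase livers while Cyp2c39, a close relative of Cyp2c29 in the same gene cluster, was not. The sequences are those of RefSeq on GRCm38.p6, written 5′ to 3′ on the gene's strand, which is the plus strand for all 3 genes. Cyp2c39 has 2 RefSeq windows, and both are given. The window at 39510572 lies just before the Cyp2c39 gene model (chr19:39510862-39568529). The window at 39347096 lies far upstream of that model, with Cyp2c38 (chr19:39389556-39463075) between them. Whether transcripts from that distant window reach Cyp2c39 was not tested. Capitals mark matches to the nuclear receptor half-sites AGGTCA or AGTTCA, and in Cyp26a1 a direct repeat of half-sites with its spacer. They lie at chr19:37697558-37697807 (Cyp26a1), chr19:39286835-39287084 (Cyp2c29) and chr19:39347096-39347345 and chr19:39510572-39510821 (Cyp2c39).
Cyp26a1: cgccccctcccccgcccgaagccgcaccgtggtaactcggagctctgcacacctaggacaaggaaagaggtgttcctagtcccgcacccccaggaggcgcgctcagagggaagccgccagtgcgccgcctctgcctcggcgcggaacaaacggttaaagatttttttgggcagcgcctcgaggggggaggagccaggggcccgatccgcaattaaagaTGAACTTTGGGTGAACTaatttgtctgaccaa
Cyp2c29: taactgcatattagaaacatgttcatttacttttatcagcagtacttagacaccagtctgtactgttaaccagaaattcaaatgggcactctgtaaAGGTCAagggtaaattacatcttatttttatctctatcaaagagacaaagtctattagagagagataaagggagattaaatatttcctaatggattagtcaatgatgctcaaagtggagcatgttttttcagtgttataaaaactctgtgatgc
Cyp2c39, window at 39347096: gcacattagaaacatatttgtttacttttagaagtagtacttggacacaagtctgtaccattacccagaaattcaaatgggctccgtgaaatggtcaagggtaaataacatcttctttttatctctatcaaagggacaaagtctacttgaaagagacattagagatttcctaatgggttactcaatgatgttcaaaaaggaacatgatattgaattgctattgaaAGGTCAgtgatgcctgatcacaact
Cyp2c39, window at 39510572: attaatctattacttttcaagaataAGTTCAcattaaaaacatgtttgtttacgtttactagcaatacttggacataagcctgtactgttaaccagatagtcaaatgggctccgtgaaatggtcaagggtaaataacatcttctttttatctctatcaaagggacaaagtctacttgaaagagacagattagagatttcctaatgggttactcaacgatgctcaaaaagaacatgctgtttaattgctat

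A promoter entry was found for 59 of the 78 members (66 windows), and all 250-base windows were searched on both strands. A direct repeat with a spacer of 5 bases, built from the half-sites AGGTCA and AGTTCA or the same letters with G in first place, is the arrangement that retinoic acid receptors are known to bind. It was present in 29 of 32851 promoters (0.0883%) and in 1 of the 66 member windows, that of Cyp26a1, on the minus strand at positions −32 to −16 from the start. Repeats with a spacer of 4 bases were in 22 promoters (0.0670%) and those with a spacer of 1 base in 54 (0.164%), none of them a member's. Single AGGTCA half-sites were in 15 of 66 member windows and 14.02% of all promoters, and single AGTTCA half-sites in 12 of 66 and 11.8%. GCGTG, the core letters bound by AhR, was in 13 of 66 member windows and 28.2% of all, CACGTG in 2 of 66 and 6.02% of all, and TTATGTAA in 0 of 66 and 0.819% of all. Cyp2c29 holds AGGTCA at −154 to −149, the Cyp2c39 window at 39347096 holds it at −25 to −20, and the Cyp2c39 window at 39510572 holds AGTTCA at −225 to −220. Cyp2c29 had 195 identical bases over 263 aligned columns (74.1%) with the Cyp2c39 window at 39347096, far from the Cyp2c39 model. With the window at 39510572, next to that model, it had 186 over 273 (68.1%). The windows of Cyp2c55 and Cyp2r1, which also differed between LbNOX and luciferase livers after ethanol, held none of the letters searched and are not printed. The matches given here describe the letters only.

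The table holds normalized counts, that is, whole reads multiplied by a factor for each library. Recovered depth was 10610038 to 15683532 reads in LbNOX ethanol libraries, 13711526 to 20585443 in LbNOX water libraries, 12236681 to 14366399 in luciferase ethanol libraries and 14535384 to 23714943 in luciferase water libraries. Genes at 10 or more normalized counts in at least 3 libraries were tested, 13570 in all, among them 67 of the 78 members. Fold changes are log2 differences of group means of log2(normalized count + 1), which understates the change of low genes, and a gene was called at a limma Benjamini-Hochberg adjusted p below 0.05 over all 13570. LbNOX and luciferase mRNA were not analysed here. Of the 77 members with a GENCODE vM21 model, 28 shared more than 30% of their 31-base words with other genes, so that reads could be divided between near copies and the values of these members are uncertain in that respect. They are Cyp2a4, Cyp2a5, Cyp2a12, Cyp2a22, Cyp2b13, Cyp2c37, Cyp2c40, Cyp2c54, Cyp2c65 to Cyp2c69, Cyp2d9, Cyp2d10, Cyp2d11, Cyp3a25, Cyp3a41a, Cyp3a41b, Cyp3a44, Cyp3a59, Cyp4a12a, Cyp4a12b, Cyp4a31, Cyp4a32, Cyp4f16, Cyp21a1 and Cyp21a2-ps.

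Per kilobase of the longest annotated transcript, for the 77 members with a model, Cyp3a11, the main drug-metabolising Cyp3a enzyme of mouse liver, stood above every other member with a mean of 56051 normalized counts per kb over 15 libraries (38529 to 69982). It was followed by the coumarin hydroxylase Cyp2a5 (14088), the steroid hydroxylase Cyp2d9 (9312), Cyp2c70, which makes muricholic acids in mice (6466), and Cyp2f2, which activates naphthalene (5887). The ranges over libraries of those 4 overlap one another, whereas that of Cyp3a11 overlaps none. By subfamily, Cyp3a held 44.8% of the members' summed level per kb, Cyp2c 12.8%, Cyp2a 11.9% and Cyp2d 11.8%, as means over libraries. The Cyp3a share was 48.1% to 51.7% in LbNOX ethanol livers, 40.6% to 52.2% in LbNOX water livers, 37.2% to 42.2% in luciferase ethanol livers and 40.5% to 47.6% in luciferase water livers, so the LbNOX ethanol range lay above both luciferase ranges and the other pairs of groups overlapped. All members together took 2.47% ± 0.196 of a library's normalized counts in LbNOX ethanol livers, 2.46% ± 0.143 in LbNOX water livers, 2.10% ± 0.204 in luciferase ethanol livers and 2.04% ± 0.212 in luciferase water livers (mean ± SD).

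**Figure D1:**
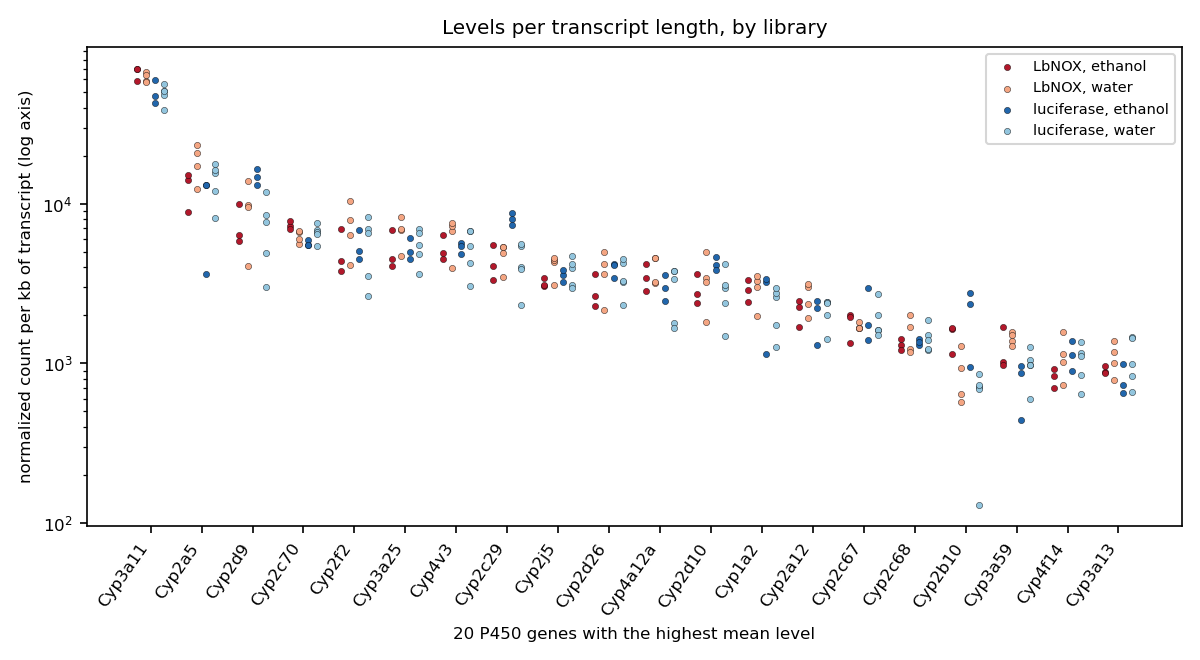
Normalized count per kb of the longest transcript (log axis) of the 20 P450 genes with the highest mean level, 1 point per library, with LbNOX ethanol, LbNOX water, luciferase ethanol and luciferase water from left to right for each gene. Cyp3a11 lies above all other genes in every library, and the lowest point of Cyp2b10 is M3 of the luciferase water livers.

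In luciferase livers, 4 P450 genes rose and 1 fell 6 h after ethanol. The retinoic acid hydroxylase Cyp26a1, the pseudogene Cyp2c53-ps, the drug-metabolising Cyp2c29 and the Cyp4f enzyme Cyp4f17 rose, and Cyp2g1, known from olfactory mucosa, fell. This is 5 of 67 members tested (7.46%), and of all genes tested 7.75% were called (4.62% higher and 3.13% lower). The median log2 fold change of the members was 0.08, and that of all genes tested 0.01. The 62 others did not pass. Values of single libraries are normalized counts, in the order of the library numbers.

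Cyp26a1 (chr19:37697798-37701536) had 885, 324 and 976 normalized counts in luciferase ethanol livers (M10, M11, M12) and 70.7, 120.0, 104, 229 and 121 in luciferase water livers (M1 to M5). All 3 ethanol libraries lay above all 5 water libraries, with M11 the lowest of the 3. The means were 728 ± 353 and 129 ± 59.4 (SD), so that the log2 fold change was 2.44 (SE 0.55, adjusted p = 0.0143). Its neighbour Cyp26c1, which also hydroxylates retinoic acid and lies on the same strand, was below the level for testing, at 24.2, 8.16 and 23.7 in luciferase ethanol livers and 2.40, 9.997, 4.16, 3.52 and 0 in luciferase water livers; the 2 highest values of all 15 libraries were those of M10 and M12, and its values overlapped between the groups. The call of Cyp26a1 was lost when M10 or M12 was left out (log2 fold changes of 2.15 to 2.22, adjusted p of 0.0750 to 0.0853).

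Cyp2c53-ps (chr19:39229254-39274985), a transcribed pseudogene upstream of Cyp2c29, had 359, 115 and 289 in luciferase ethanol livers and 0.599, 3.64, 0, 10.6 and 5.00 in luciferase water livers. It was near 0 in every group except luciferase after ethanol, where again M11 was the lowest. Only the luciferase ethanol libraries and M4 reached the 10 normalized counts of the filter. The pseudogene was therefore tested only because of the group in which it was high. The log2 fold change was 6.04 (SE 0.82, adjusted p = 0.000510), the largest among the members, and lay between 4.16 and 6.54 over 25 other settings, all of which called it; its size depends on the pseudocount because the water values are near 0. It shares 12.2% of its 31-base words with Cyp2c29, and the 2 GENCODE models overlap by 5581 bases on the same strand, so some reads could belong to either. The RefSeq start of Cyp2c29 lies 12.1 kb beyond the end of the pseudogene's model.

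Cyp2c29 (chr19:39269405-39330713), an epoxygenase of arachidonic acid that is inducible through CAR, had 24618, 22529 and 20794 in luciferase ethanol livers and 11266, 11029.9, 6549.9, 15278 and 15812 in luciferase water livers. The groups did not overlap, and the 3 ethanol libraries lay close together. The log2 fold change was 0.98 (SE 0.26, adjusted p = 0.0318). Cyp4f17, of a subfamily that hydroxylates fatty acids and eicosanoids, had 228, 175 and 157 in luciferase ethanol livers and 86.3, 101, 108, 149 and 116 in luciferase water livers (log2 fold change 0.74, SE 0.19, adjusted p = 0.0296), with the lowest ethanol value just above the highest water value. Cyp2g1 had 10.9, 31.5 and 28.7 in luciferase ethanol livers and 36.0, 55.4, 50.7, 59.8 and 61.0 in luciferase water livers (log2 fold change −1.22, SE 0.33, adjusted p = 0.0371), again without overlap, at a low level. These calls depended on single libraries. That of Cyp2c29 was lost when M1, M2, M10, M11 or M12 was left out (log2 fold changes of 0.92 to 1.04, adjusted p of 0.0615 to 0.133). The call of Cyp4f17 was lost when M1, M2, M3, M10 or M11 was left out (log2 fold changes of 0.58 to 0.77, adjusted p of 0.0505 to 0.171), and also without M3 and M8 together. For Cyp2g1 it was lost when M2, M3, M4, M5, M6, M7, M10 or M12 was left out (log2 fold changes of −1.42 to −0.76, adjusted p of 0.0501 to 0.207), with edgeR on the recovered reads, under quantile normalization, and without M3 and M8 together. In a fit of only the luciferase groups, these 3 did not pass.

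**Figure D2:**
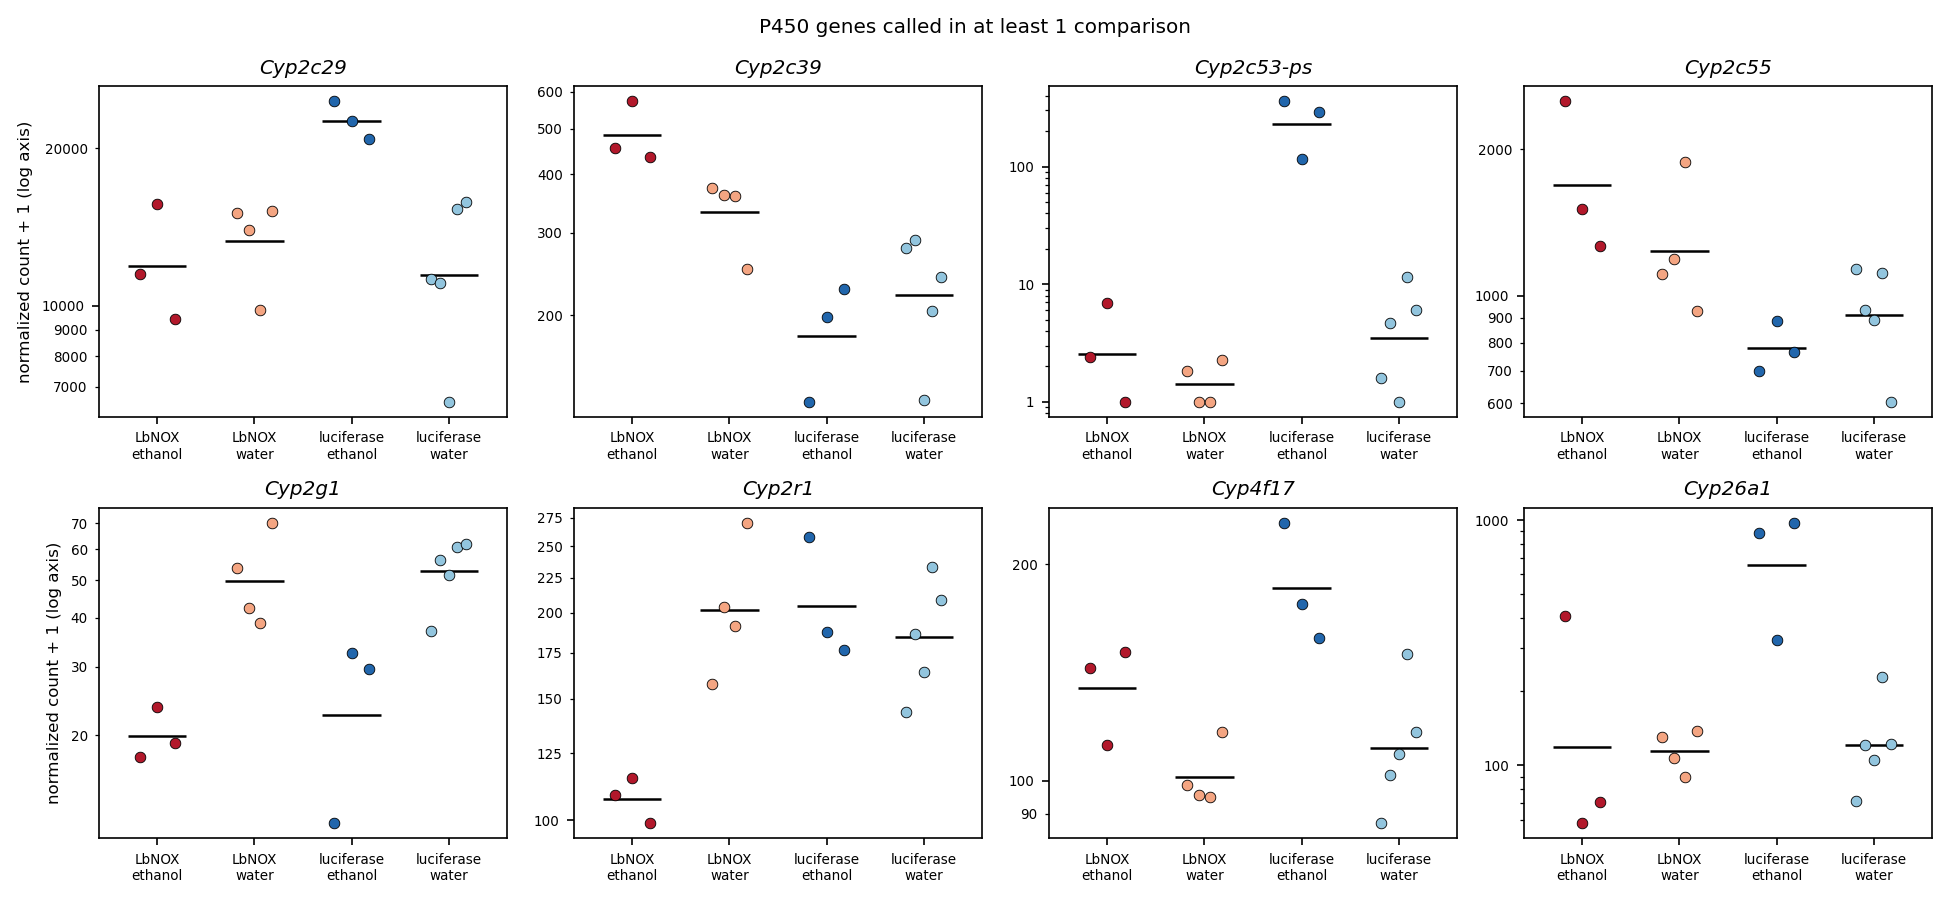
Normalized count + 1 (log axis) of the 8 P450 genes called in at least 1 comparison, 1 point per library and a bar at the group mean of the log values, with LbNOX ethanol, LbNOX water, luciferase ethanol and luciferase water from left to right. Cyp26a1 and Cyp2c53-ps stand high in luciferase ethanol livers, Cyp2r1 stands low in LbNOX ethanol livers, and Cyp2g1 is low in both ethanol groups.

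Several members lay just short of the threshold in luciferase livers. Cyp2b10, the classic CAR target, had 1826, 5284 and 4500.5 in luciferase ethanol livers and 1365, 1331, 250.2, 1397 and 1639 in luciferase water livers, all 3 ethanol values above all water values, and the log2 fold change was 1.80 (SE 0.54, adjusted p = 0.0600). M3 was far below the other water libraries, and without M3 Cyp2b10 was called, as it was without M10, without M3 and M8 together, with a filter on a mean of 50, with edgeR and with DESeq2. Cyp2d37-ps, a pseudogene of the Cyp2d cluster singled out after its values were seen, had 416, 381 and 437 in luciferase ethanol livers and 116, 136, 144, 198 and 338 in luciferase water livers (log2 fold change 1.25, adjusted p = 0.0655). Cyp4b1, known for hydroxylating short fatty acids, had 49.6, 57.1 and 66.1 in luciferase ethanol livers and 80.9, 81.8, 139.6, 108 and 104 in luciferase water livers (log2 fold change −0.81, adjusted p = 0.0792), and was called with DESeq2 and without M15. In all, the luciferase groups did not overlap for 12 of 67 members (9 higher and 3 lower after ethanol, 17.9%), and for 14.7% of all genes tested.

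After ethanol, LbNOX livers differed from luciferase livers in 5 P450 genes. Cyp26a1, Cyp2c53-ps and the vitamin D hydroxylase Cyp2r1 were lower with LbNOX, and Cyp2c39 and Cyp2c55 were higher. This is 5 of 67 (7.46%), where 6.06% of all genes tested were called (2.24% higher and 3.82% lower), with a median of −0.05 for the members and 0.00 for all genes. The comparison shares its 3 luciferase ethanol libraries with the previous one, so an opposite sign in the 2 comparisons is in part built in.

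Cyp26a1 had 404, 57.0 and 70.1 in LbNOX ethanol livers and 885, 324 and 976 in luciferase ethanol livers. M13 was above M11, so the groups overlapped, while M14 and M15 lay below every water library of either construct. The log2 fold change was −2.46 (SE 0.62, adjusted p = 0.0307); the call was lost when M10, M12, M14 or M15 was left out (log2 fold changes of −2.25 to −1.95, adjusted p of 0.102 to 0.132), and also with edgeR on the recovered reads and in a fit of only the ethanol groups. Without M13 it was −3.35, adjusted p = 0.00311. M13 also had the highest sums of neutrophil and adipose markers of all 15 libraries, and their part in its Cyp26a1 level was not tested. Cyp2c53-ps had 1.38, 5.90 and 0 in LbNOX ethanol livers and 359, 115 and 289 in luciferase ethanol livers, so the highest LbNOX value was below the lowest luciferase value, at −6.50 (SE 0.92, adjusted p = 0.00118). It was called in all 25 other settings, with log2 fold changes of −7.22 to −4.30.

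Cyp2r1 (chr7:114549682-114562972, minus strand), which starts the activation of vitamin D in liver, had 108, 114 and 97.9 in LbNOX ethanol livers, 157, 203, 190.2 and 269.6 in LbNOX water livers, 257, 187 and 176 in luciferase ethanol livers, and 143, 185, 163, 232 and 208 in luciferase water livers. The 3 LbNOX ethanol libraries held the 3 lowest values of all 15 libraries. Against luciferase ethanol livers the log2 fold change was −0.93 (SE 0.22, adjusted p = 0.0264), and its call was lost when M10, M13 or M15 was left out (log2 fold changes of −0.94 to −0.76, adjusted p of 0.0711 to 0.118). Cyp2c39 (chr19:39510862-39568529), which hydroxylates retinoic acid in mouse liver, had 454, 572 and 434 in LbNOX ethanol livers, 372, 360.2, 358 and 249 in LbNOX water livers, 129.5, 197 and 227 in luciferase ethanol livers, and 277, 288, 130.5, 203 and 239.9 in luciferase water livers. All LbNOX ethanol values lay above all values of the other groups. The log2 fold change against luciferase ethanol livers was 1.42 (SE 0.28, adjusted p = 0.00912), and the call was lost without M10 (1.19, adjusted p = 0.0520).

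Cyp2c55 (chr19:39007019-39042693), which makes hydroxylated eicosanoids, had 2513, 1508 and 1262 in LbNOX ethanol livers, 1107, 1189.9, 1886 and 927 in LbNOX water livers, 698, 886 and 763 in luciferase ethanol livers, and 1133, 934, 892, 1109.6 and 604 in luciferase water livers. The ethanol groups did not overlap, but M8 of the LbNOX water libraries was above 2 of the LbNOX ethanol libraries. Its log2 fold change was 1.11 (SE 0.29, adjusted p = 0.0366), lost when M2, M6, M7, M10, M11, M12, M13 or M14 was left out (log2 fold changes of 0.82 to 1.21, adjusted p of 0.0502 to 0.149) and when no mean-variance trend was used. Cyp2c29 had 11473, 15619.5 and 9416 in LbNOX ethanol livers and 24618, 22529 and 20794 in luciferase ethanol livers, without overlap, at −0.92 (SE 0.29, adjusted p = 0.0780), and was called with DESeq2, under quantile normalization, without M3, without M3 and M8 together and in a fit of only the ethanol groups. The ethanol groups did not overlap for 25 of 67 members (8 higher and 17 lower with LbNOX, 37.3%), against 29.6% of all genes tested. The number of members called was 12 (2 higher and 10 lower) without M3 and M8 together, 11 in a fit of only the ethanol groups, and 9 with DESeq2. Of all genes tested, these settings called 1179 of 13570, 703 of 13570 and 1365 of 14034, in the same order.

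In LbNOX livers, no member passed between ethanol and water by limma, where 0.00737% of all genes tested were called. An unadjusted p below 0.05 was found for 5 of 67 members and for 1571 of all 13570 genes tested. By edgeR no member was called either. DESeq2 called 2 members, Cyp2g1 and Cyp2r1, both lower after ethanol, beside 291 of all 13725 genes. Cyp2g1 had 16.6, 22.6 and 18.1 in LbNOX ethanol livers and 52.6, 41.4, 37.7 and 69.3 in LbNOX water livers, all 3 ethanol values below all 4 water values (log2 fold change −1.32, SE 0.35, adjusted p = 0.155). Cyp2r1 was likewise lower in all 3 (log2 fold change −0.91, SE 0.21, adjusted p = 0.119). The adrenal steroid hydroxylase Cyp21a1 had 40.1, 34.4 and 95.5 in LbNOX ethanol livers and 22.2, 18.0, 33.1 and 25.2 in LbNOX water livers, all ethanol values above all water values (log2 fold change 1.05, SE 0.35, adjusted p = 0.268), and shares 35.9% of its 31-base words with Cyp21a2-ps. In all, the LbNOX groups did not overlap for 5 of 67 members (3 higher and 2 lower after ethanol, 7.46%), and for 10.9% of all genes tested. Cyp26a1 was at 177 ± 197 in LbNOX ethanol livers and 115 ± 22.1 in LbNOX water livers (SD, n = 3 and 4), a log2 difference of 0.05 (95% interval −1.19 to 1.29), an interval that still contains a doubling and a halving. Without M13, its one high LbNOX ethanol library, it was −0.84, adjusted p = 0.727.

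After water, no member passed between LbNOX and luciferase livers by limma, where 0% of all genes tested were called. An unadjusted p below 0.05 was found for 4 of 67 members and for 440 of all 13570 genes tested. edgeR and DESeq2 also called no member, while DESeq2 called 19 of all 16230 genes. The 3 smallest p-values were those of Cyp21a1, Cyp2c39 and Cyp3a59. Cyp21a1 had 22.2, 18.0, 33.1 and 25.2 in LbNOX water livers and 31.2, 37.3, 50.7, 58.6 and 56.0 in luciferase water livers (log2 fold change −0.89, SE 0.31, adjusted p = 1.00). Cyp2c39 lay at 0.59 and the Cyp3a enzyme Cyp3a59 at 0.60. Cyp3a11 had 163962, 186933, 162819 and 178479 in LbNOX water livers and 142672, 135017, 107958, 142926 and 157707 in luciferase water livers, all 4 LbNOX values above all 5 luciferase values, and the log2 fold change was 0.34 (SE 0.15, adjusted p = 1.00). It was 1 of 2 members whose water groups did not overlap (2.99%), as for 0.936% of all genes tested. Of the 67 members, 48 had a log2 fold change above 0, and the median was 0.20 against 0.01 for all genes.

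The difference between the ethanol effect in LbNOX livers and that in luciferase livers was tested directly. It was called for 1 member, Cyp2c53-ps, at −5.21 (SE 1.19, adjusted p = 0.0442), that is 1 of 67 (1.49%), and 1.67% of all genes tested were called (0.427% higher and 1.25% lower). The call did not hold in 15 of 24 other settings, among them edgeR, DESeq2, a pseudocount of 0.5 and quantile normalization, with adjusted p up to 0.469. Within the leave-one-out fits it was lost when M1, M2, M3, M6, M7, M9, M10, M12, M13 or M15 was left out (log2 fold changes of −5.38 to −4.54, adjusted p of 0.0522 to 0.138). Cyp21a1, which was higher after ethanol in every LbNOX library and lower in every luciferase library, had a difference of 1.97 (SE 0.49, adjusted p = 0.0604) and was called without M8, without M14, under quantile normalization and with DESeq2. Cyp2r1 had −1.06 (adjusted p = 0.0857) and Cyp26a1 −2.39 (adjusted p = 0.164). So for Cyp26a1 the ethanol effect was called in luciferase livers and not in LbNOX livers, but the difference between the 2 effects did not pass. Without M13 the difference was −3.28, adjusted p = 0.0239 and was called, the one call of it among 24 other settings. For Cyp2r1 it was called with DESeq2. Without M3 and M8 together 3 members were called, Cyp2c29, Cyp2c53-ps and Cyp4f15, all with negative differences, beside 382 of all 13570 genes tested.

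Of the 8 members called in any comparison, 5 lie on chromosome 19, which carries 18 of the 77 members with a model, 2 on chromosome 7 and 1 on chromosome 17. On chromosome 19, 15 Cyp2c genes stand side by side over 1180 kb (chr19:39007019-40187333), and 14 of them were tested. The tested genes of the cluster had log2 fold changes on both sides of 0 in each comparison. Along the chromosome, Cyp2c55 was higher in LbNOX than in luciferase livers after ethanol, Cyp2c53-ps and Cyp2c29 were higher after ethanol in luciferase livers, and Cyp2c39, 2 genes past Cyp2c29, was higher in LbNOX than in luciferase livers after ethanol. Cyp2c38, between them, had 3223, 2796 and 1958 in LbNOX ethanol livers and 1409, 1845 and 1698 in luciferase ethanol livers (log2 fold change 0.67, adjusted p = 0.227), and shares 13.9% of its words with Cyp2c39.

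Cyp2c65, between Cyp2c55 and Cyp2c53-ps, lay at −0.47 for ethanol in luciferase livers and 0.49 for LbNOX after ethanol, with SE of 0.81 and 0.90, and Cyp2c66 next to it was not tested. The block of Cyp2c67, Cyp2c68 and Cyp2c40 lay within −0.16 to 0.10 in both comparisons, and 62.0% or more of their words are shared with other genes. Cyp2c69, the next gene, had 6.92, 0 and 16.9 in LbNOX ethanol livers and 13.3, 38.5 and 26.2 in luciferase ethanol livers (log2 fold change −2.25, adjusted p = 0.153), low values that overlapped through M15. Further along, the neighbours Cyp2c37, Cyp2c54 and Cyp2c50 had log2 fold changes of 0.68, 0.89 and 0.78 after ethanol in luciferase livers, and of −0.72, −1.78 and −1.47 with LbNOX after ethanol. None of these passed. Cyp2c50, for example, had 443, 705 and 770.2 in LbNOX ethanol livers, 1037, 984, 554 and 1676 in LbNOX water livers, 2557, 1643 and 1225 in luciferase ethanol livers, and 905, 729, 485, 1773 and 1817 in luciferase water livers, so that only the ethanol groups stood apart. With LbNOX after ethanol Cyp2c50 was called with DESeq2, in a fit of only the ethanol groups and without M3 and M8 together. Cyp2c37 and Cyp2c54 share 47.4% and 42.3% of their words with other genes, which leaves the split of reads among the 3 uncertain. Cyp2c70, at the end of the cluster and with no shared words, had 12389, 11994 and 13382 in LbNOX ethanol livers and 9528, 10181 and 9477 in luciferase ethanol livers (log2 fold change 0.37, adjusted p = 0.126).

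**Figure D3:**
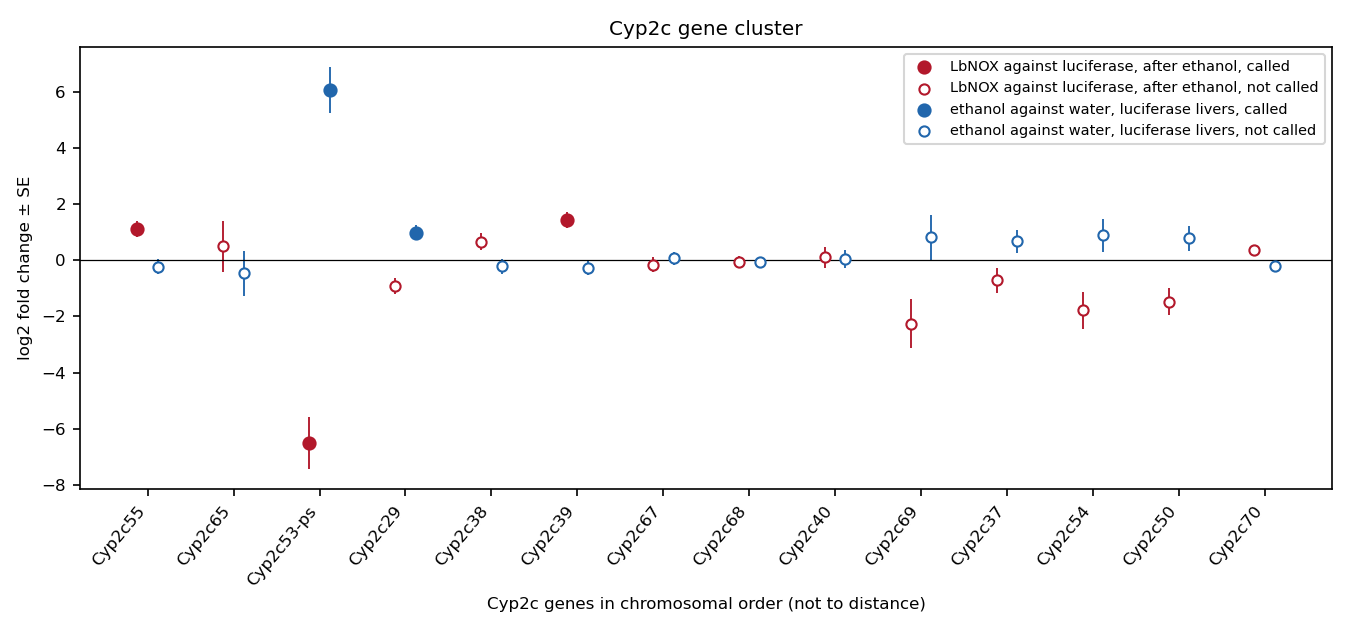
Log2 fold change ± SE (limma) of the 14 tested Cyp2c genes of the chromosome 19 cluster in chromosomal order, for LbNOX against luciferase after ethanol (red, left) and ethanol against water in luciferase livers (blue, right). The comparisons share the luciferase ethanol libraries. Filled points were called, and Cyp2c53-ps is the farthest from 0 in both.

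Other subfamilies were too small for their share of called genes to be compared with that of all genes. All 7 tested Cyp2d genes had a log2 fold change above 0 after ethanol in luciferase livers (median 0.58) and 6 of 7 were below 0 with LbNOX after ethanol (median −0.73); none passed in either comparison. Cyp2d9, a testosterone hydroxylase that is male-predominant in mouse liver, had 10912, 17007 and 10021 in LbNOX ethanol livers, 16731, 16331, 7017 and 23596 in LbNOX water livers, 28244, 25240.0 and 22518 in luciferase ethanol livers, and 8419, 13091, 5132, 14623 and 20250.1 in luciferase water livers. The 3 luciferase ethanol libraries stood above the luciferase water libraries, but M9 of the LbNOX water libraries lay within their range (log2 fold change 1.19, adjusted p = 0.101, for ethanol in luciferase livers and log2 fold change −1.04, adjusted p = 0.214, for LbNOX after ethanol). With LbNOX after ethanol Cyp2d9 was called in a fit of only the ethanol groups and without M3 and M8 together. The Cyp2d genes all lie on chromosome 15 and share sequence, 46.4% of the words in the case of Cyp2d9, so they are not independent measurements.

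In the Cyp4f subfamily, 5 of 7 genes were above 0 after ethanol in luciferase livers (1 called, Cyp4f17) and 5 of 7 below 0 with LbNOX after ethanol (none called). Cyp4f15 had 553, 827 and 571 in LbNOX ethanol livers, 1219, 1362 and 999.6 in luciferase ethanol livers and 556, 613, 415, 741 and 967 in luciferase water livers. Its luciferase groups did not overlap, nor did its ethanol groups, yet it did not pass (log2 fold change 0.90, adjusted p = 0.0999 and log2 fold change −0.89, adjusted p = 0.157). For ethanol in luciferase livers it was called without M8, and for LbNOX after ethanol in a fit of only the ethanol groups and without M3 and M8 together. The 4 Cyp4a genes were all above 0 with LbNOX after ethanol (median 0.65) and 3 of 4 below 0 for ethanol in luciferase livers (median −0.61), none called. Among the 6 tested Cyp3a genes none passed in any comparison. For Cyp3a11 the ethanol difference in luciferase livers was 0.03 (95% interval −0.32 to 0.37), so a doubling and a halving lie outside the interval. Cyp3a41a shares 96.1% of its words with Cyp3a41b, so the split of reads between them is uncertain. In M15 Cyp3a41a had 27.8 and Cyp3a41b 0, and in M7 Cyp3a41a had 0 and Cyp3a41b 13.3, and neither is read on its own.

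**Figure D4:**
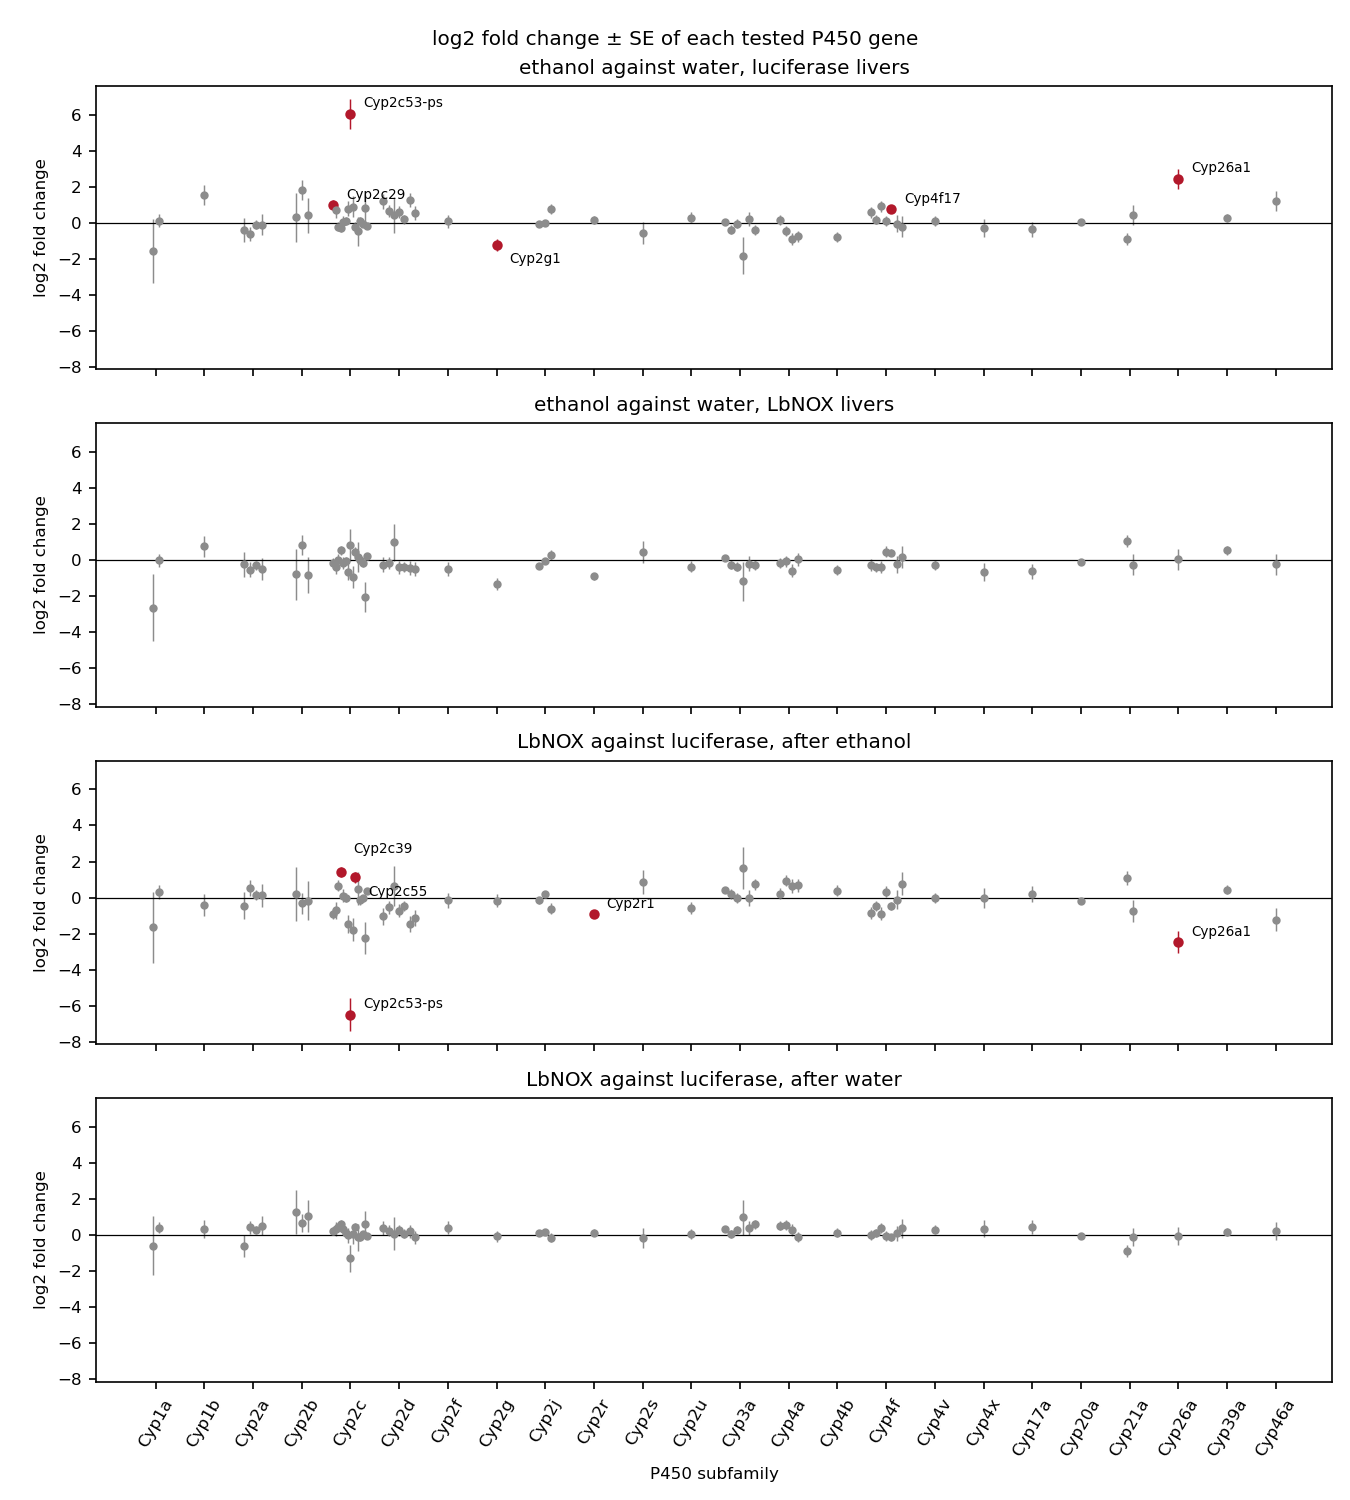
Log2 fold change ± SE (limma) of each of the 67 tested P450 genes by subfamily, in 4 comparisons. Red points with a name were called: 5 for ethanol in luciferase livers, 5 for LbNOX after ethanol, and 0 in the 2 others.

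Members were also grouped by the receptor that is known to induce them, in lists too short to show a share below that of all genes. Of 14 tested CAR and PXR targets, 1 was called after ethanol in luciferase livers (Cyp2c29, higher) and 1 with LbNOX after ethanol (Cyp2c55, higher), that is 7.14% in each, beside 7.75% and 6.06% of all genes tested, with medians of 0.25 and −0.02. The 3 AhR targets were not called in any comparison. Cyp1a1, the classic AhR-induced enzyme, was listed at 0, 0 and 0 in LbNOX ethanol livers, 27.9, 0, 52.4 and 0 in LbNOX water livers, 0, 30.3 and 0 in luciferase ethanol livers and 27.6, 55.4, 47.4, 0 and 0 in luciferase water livers, either 0 or between 27.6 and 55.4. Cyp1a2, the constitutive liver enzyme of this subfamily, had log2 fold changes of 0.10 for ethanol in luciferase livers and 0.30 for LbNOX after ethanol. Cyp1b1, which is mainly expressed outside hepatocytes, had 20.6, 16.3 and 26.2 in luciferase ethanol livers and 3.596, 6.36, 16.6, 5.86 and 5.00 in luciferase water livers (log2 fold change 1.52, adjusted p = 0.114), with M3 the one high water library, and was called without M3 and M8 together. None of 6 tested PPARA targets of the family passed, with medians of −0.16 for ethanol in luciferase livers and 0.41 for LbNOX after ethanol.

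Of 6 tested enzymes of steroids, retinoids, vitamin D and sterols, 1 rose after ethanol in luciferase livers (Cyp26a1) and 2 were lower with LbNOX after ethanol (Cyp26a1 and Cyp2r1), beside 7.75% and 6.06% of all genes tested. Cyp17a1, which makes androgen precursors, had log2 fold changes of −0.37 for ethanol in luciferase livers and 0.19 for LbNOX after ethanol, and the oxysterol hydroxylase Cyp39a1 0.26 and 0.44. Cyp46a1, the cholesterol hydroxylase known from brain, had 45.7, 30.5 and 9.67 in LbNOX ethanol livers, 66.6, 53.6 and 53.6 in luciferase ethanol livers and 23.4, 24.5, 8.31, 38.7 and 42.0 in luciferase water livers; the luciferase ethanol libraries were the 3 highest of all, and neither comparison passed (log2 fold change 1.23, adjusted p = 0.221 and log2 fold change −1.23, adjusted p = 0.278). Of 9 tested female-predominant members, 1 was called, Cyp2g1, which fell after ethanol in luciferase livers, where 7.75% of all genes tested were called (3.13% lower). Of 4 male-predominant members none was called in any comparison. All 9 female-predominant members were below 0 for ethanol in LbNOX livers (median −0.78, beside −0.00 for all genes and −0.25 for the family), as were all 4 male-predominant members (median −0.20), with none called. The female-predominant Cyp2b9 spread widely within groups, at 50.8 to 1223 in LbNOX ethanol livers, 186 to 1296 in LbNOX water livers, 43.6 to 912 in luciferase ethanol livers and 18.3 to 869.7 in luciferase water livers. Of the subfamilies with a single tested gene, Cyp2f2, Cyp2u1, Cyp4v3, Cyp20a1, Cyp2s1 and Cyp4x1 passed in no comparison; for ethanol in luciferase livers their log2 fold changes were 0.08, 0.28, 0.08, 0.02, −0.59 and −0.30.

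The Cyp2a, Cyp2b and Cyp2j subfamilies gave no call. Cyp2a5 had 7341, 26368 and 26453 in luciferase ethanol livers and 31317, 32611, 16461, 35766 and 24032 in luciferase water livers (log2 fold change −0.65, adjusted p = 0.381), with M10 the lowest of all 15 libraries. The female-predominant Cyp2b13 had 2.42, 30.3 and 22.4 in luciferase ethanol livers and 18.6, 8.18, 1.66, 22.3 and 8.995 in luciferase water livers (log2 fold change 0.41, adjusted p = 0.870), and M10 and M3 were the low libraries of their groups, as they were for Cyp2b9. Cyp2j5, an epoxygenase of arachidonic acid, had log2 fold changes of −0.07 for ethanol in luciferase livers and −0.15 for LbNOX after ethanol. Of the Cyp4a enzymes, which hydroxylate fatty acids, Cyp4a12a, Cyp4a12b, Cyp4a31 and Cyp4a32 lay at 0.14, −0.45, −0.92 and −0.77 for ethanol in luciferase livers and at 0.21, 0.94, 0.61 and 0.69 for LbNOX after ethanol. Cyp4a31 was called for ethanol in luciferase livers without M11 (−1.41, adjusted p = 0.0166), and Cyp4a12b for LbNOX after ethanol in a fit of only the ethanol groups. Cyp4f14, the highest Cyp4f gene, lay at 0.17 and −0.45 in those 2 comparisons, Cyp3a13 at −0.39 and 0.21, Cyp3a25 at −0.06 and −0.03, and Cyp3a44 at 0.19 and −0.02.

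Genes that supply P450 enzymes with electrons or heme are set beside the share of all genes called. None of 10 electron donor genes was called in any comparison, but a list of 10 is too short to show a lower share. Por had 10835, 13963 and 12431 in luciferase ethanol livers and 8599, 8821, 5534, 10116 and 8782 in luciferase water livers (log2 fold change 0.59, adjusted p = 0.105), with all 3 ethanol values above all water values. Of 13 genes of heme synthesis and breakdown, Cpox, coproporphyrinogen oxidase, fell after ethanol in luciferase livers (log2 fold change −0.71, SE 0.17, adjusted p = 0.0232), and Hmox1, which breaks heme down, was higher with LbNOX after ethanol. Hmox1 had 1059, 608 and 965 in LbNOX ethanol livers and 297, 327 and 350.2 in luciferase ethanol livers (log2 fold change 1.40, SE 0.36, adjusted p = 0.0331), without overlap. The LbNOX ethanol range of Hmox1 also held M8 of the LbNOX water libraries, at 1037. It held M1 and M3 of the luciferase water libraries too, at 617 and 820. The calls of Cpox and Hmox1 are each 1 of 13 (7.69%). Of all genes tested, 7.75% were called for ethanol in luciferase livers and 6.06% for LbNOX after ethanol. The call of Hmox1 was lost when M10, M11, M12, M13 or M15 was left out (log2 fold changes of 1.24 to 1.45, adjusted p of 0.0762 to 0.124) and without a mean-variance trend; that of Cpox was lost when M10 or M12 was left out (log2 fold changes of −0.65 to −0.56, adjusted p of 0.0972 to 0.142) and in a fit of only the luciferase groups. Alas1, the first enzyme of heme synthesis, stood at −0.24 for ethanol in luciferase livers, −0.51 for ethanol in LbNOX livers, 0.18 for LbNOX after water and −0.09 for LbNOX after ethanol, none of which passed.

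Of 23 tested regulators, 3 rose and 2 fell after ethanol in luciferase livers, and 2 were higher and 1 lower with LbNOX after ethanol, that is 5 and 3 of 23 (21.7% and 13.04%), beside 7.75% and 6.06% of all genes tested. The list was chosen with earlier results of these data known, so these shares are not an independent test. Hlf, a circadian factor known to act on P450 and Por genes, had 1100.1, 1195 and 873 in LbNOX ethanol livers, 1596, 1452, 992 and 1330.5 in LbNOX water livers, 3175, 2458 and 2769 in luciferase ethanol livers, and 1130.5, 1228, 828, 1533 and 1284 in luciferase water livers. Only luciferase ethanol livers stood high, and the log2 fold changes were 1.24 (SE 0.19, adjusted p = 0.00130) for ethanol in luciferase livers, −1.41 (SE 0.22, adjusted p = 0.00195) for LbNOX after ethanol and −1.58 (SE 0.28, adjusted p = 0.0123) for the difference of the ethanol effects. Its relative Dbp fell instead (log2 fold change −1.90, SE 0.49, adjusted p = 0.0278), at 81.1, 295 and 207 in luciferase ethanol livers and 479, 726, 493, 556 and 1125 in luciferase water livers. The growth hormone effector Stat5b rose (log2 fold change 0.59, SE 0.12, adjusted p = 0.00649), the repressor Bcl6 rose (log2 fold change 1.27, SE 0.35, adjusted p = 0.0382), and the liver factor Foxa2 fell (log2 fold change −0.93, SE 0.19, adjusted p = 0.00795). In LbNOX livers ethanol gave similar log2 fold changes for Dbp (−1.78) and Bcl6 (1.27), neither called by limma (adjusted p = 0.182 for each). The difference of the ethanol effects was 0.13 (SE 0.70) for Dbp and −0.0038 (SE 0.51) for Bcl6. Stat5b and Foxa2 had smaller log2 fold changes in LbNOX livers, 0.20 and −0.42, also not called. For none of these genes did the difference of the ethanol effects pass. The calls of Hlf, Stat5b and Foxa2 held in all other settings run. The call of Dbp was lost when M2, M5, M10 or M12 was left out (log2 fold changes of −2.04 to −1.37, adjusted p of 0.0542 to 0.165), and that of Bcl6 when M1, M2, M7, M10, M11 or M12 was left out (log2 fold changes of 1.01 to 1.52, adjusted p of 0.0512 to 0.169), without a mean-variance trend and in a fit of only the luciferase groups.

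Tiparp, an AhR target outside the family that in turn represses AhR, had 203, 267 and 242 in LbNOX ethanol livers, 214, 254, 216 and 180.2 in LbNOX water livers, 1069.9, 800.0 and 907 in luciferase ethanol livers, and 154, 195, 233, 323 and 187 in luciferase water livers. Again the 3 luciferase ethanol libraries alone stood high, and the log2 fold changes were 2.11 (SE 0.20, adjusted p = 3.6e-05) for ethanol in luciferase livers, −1.96 (SE 0.23, adjusted p = 0.000350) for LbNOX after ethanol and −1.98 (SE 0.30, adjusted p = 0.00809) for the difference, and every setting run called all 3. The other AhR targets outside the family that were tested, Nqo1 and Ugt1a6a, did not pass. Ahr itself had 1673, 1116 and 1220.0 in LbNOX ethanol livers and 399, 834 and 511 in luciferase ethanol livers (log2 fold change 1.25, SE 0.29, adjusted p = 0.0237), and its partner Arnt 1454, 1352 and 1449.8 in LbNOX ethanol livers and 923, 928 and 1031 in luciferase ethanol livers (log2 fold change 0.56, SE 0.13, adjusted p = 0.0202), both higher with LbNOX and without overlap. M8 of the LbNOX water libraries lay within the LbNOX ethanol range for both, at 1180 for Ahr and 1410 for Arnt. The call of Ahr was lost when M10, M12, M13 or M15 was left out (log2 fold changes of 1.01 to 1.3005, adjusted p of 0.0676 to 0.108), and that of Arnt when M10, M11, M13 or M15 was left out (log2 fold changes of 0.54 to 0.55, adjusted p of 0.0560 to 0.0770). The receptors PXR (Nr1i2, log2 fold change 0.51, adjusted p = 0.0549) and CAR (Nr1i3, log2 fold change −0.49, adjusted p = 0.553) did not pass after ethanol in luciferase livers, nor in any other comparison. Nr1i2 was called after ethanol in luciferase livers with DESeq2, under quantile normalization, with a filter on a mean of 50, without M4 and without M13.

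Levels of the members spread more between libraries of a group than the median gene. Their median SD on the log2 scale was 0.37 in LbNOX ethanol livers, 0.44 in LbNOX water livers, 0.35 in luciferase ethanol livers and 0.50 in luciferase water livers. Over all genes tested it was 0.25, 0.29, 0.23 and 0.32 in the same order of groups. Of the 48 members with a mean of 100 or more normalized counts, M3 had the lowest value of its group in 29, M8 in 34 and M15 in 29, while M9 had the highest in 31.

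Markers of other cells differed in some of these libraries. The summed level of 5 exocrine pancreas markers was 7011 normalized counts in M8 and 925 in M3, against 22.0 to 222 in the 13 other libraries. The sum of 6 Kupffer cell markers was 1565 in M15, 1784 in M8 and 2080.2 in M3, against 629.7 to 1085 in the 12 others, and that of 6 endothelial markers was also highest in M8, M3 and M15. M13 stood apart in other lists. The sum of 5 neutrophil markers was 664 in M13, against 109 to 313 in the 14 others, and that of 4 adipose markers 3451, against 990.3 to 2441, while the fat cell hormone Adipoq was at 1.38 in M13 and at most 19.9 in any library. Kupffer cell markers summed to 774 to 1565 in LbNOX ethanol livers and 629.7 to 789 in luciferase ethanol livers, and hepatocyte markers to 549519 to 692900.0 and 658784 to 833513. Of 14 marker lists, 1 had a called gene, a T and NK cell marker that was lower after ethanol in luciferase livers. No marker in the table was at 0 in every library. The part of these cells in the P450 levels was not tested, and in bulk tissue fewer cells of a type and less RNA per cell cannot be told apart. Without M3 and M8 together, Cyp2c29, Cyp2c53-ps and Cyp26a1 were still called for ethanol in luciferase livers, and Cyp2g1 and Cyp4f17 were not.

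**Figure D5:**
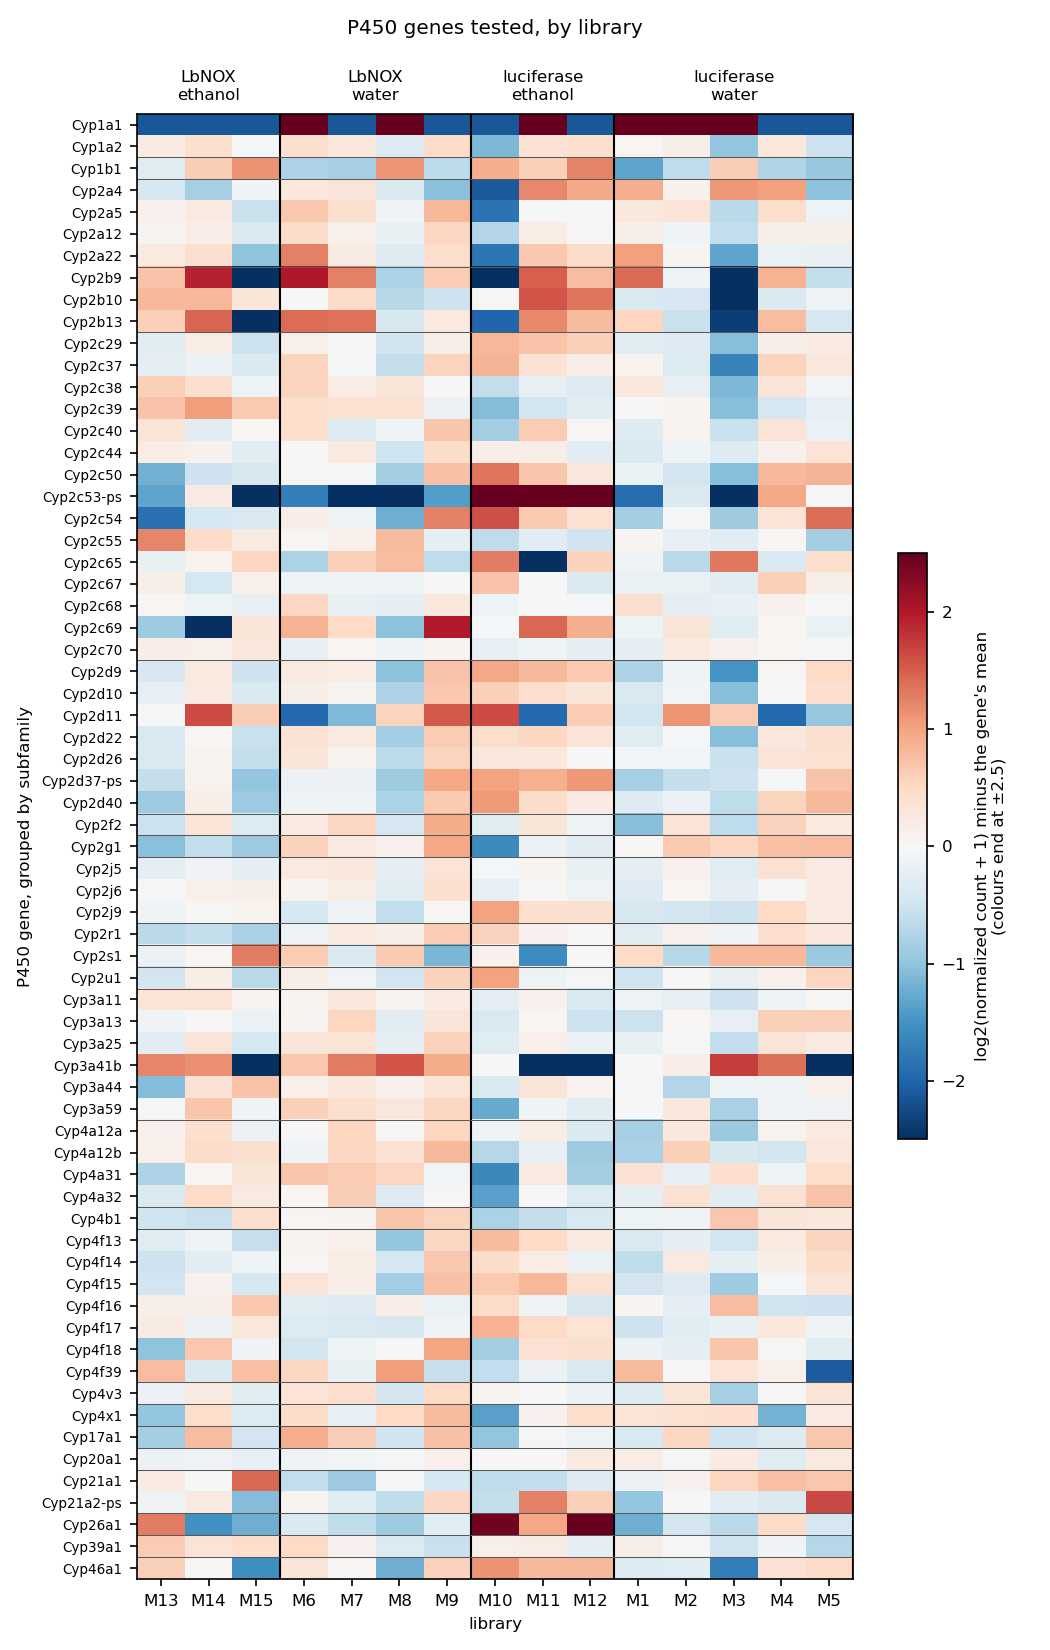
Log2(normalized count + 1) of each tested P450 gene minus its mean over the 15 libraries, with genes grouped by subfamily down the page and libraries in columns, LbNOX ethanol, LbNOX water, luciferase ethanol and luciferase water from left to right. Red is above and blue below the gene's mean. Cyp2c53-ps is dark red in the 3 luciferase ethanol columns and Cyp26a1 in 2 of them, and M8 and M3 held the lowest value of their group in 34 and 29 of 48 members.

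The 11 members below the level for testing were Cyp11a1, Cyp11b1, Cyp26c1, Cyp2c66, Cyp2d12, Cyp2d34, Cyp2j13, Cyp2t4, Cyp3a16, Cyp3a41a and Cyp3a57. Their highest value in any library was 27.8 normalized counts. Cyp11a1 and Cyp11b1, steroid-making enzymes of the adrenal cortex, had their highest values in M12, at 12.5 and 7.48, and Cyp11a1 was at 0 in 12 of 15 libraries.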

How the data were processed

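RNA was extracted with the RNeasy plus kit and libraries were made with the KAPA mRNA HyperPrep kit, per the labels' protocols. Per the submitters' processing notes, Salmon 1.5.1, DESeq2 1.30.1 and the build mm10 were used, with no role or order given. The deposited signal is a table of normalized counts per gene, and its columns carry the group but no replicate number. Multiplying each of the 15 columns by 1 factor gave whole reads for 100% of 244950 values (tolerance 0.001), so depth could be recovered. Of the samples' columns, all were assigned to a group from the header.

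A count was compared on the scale log2(normalized count + 1) by limma 3.58.1 under R 4.3.3, using robust variances and a trend of variance with mean, in 1 fit of the 4 groups with 5 contrasts. Genes entered if 3 libraries or more had a value of 10 or above, and Benjamini-Hochberg adjustment ran over all of them. Intervals are 95% intervals of that fit. edgeR 4.0.16 (quasi-likelihood) and DESeq2 1.42.0 on the recovered reads were alternatives, as were other filters, pseudocounts, quantile normalization, a fit without the trend, fits restricted to the groups of a comparison, and fits leaving out each library in turn; the fit without M3 and M8 was chosen after the data were seen. Gene models and shared 31-base words come from GENCODE vM21 (GRCm38), promoters from RefSeq GRCm38.p6. Counting in the deposited table is not known to use strand.

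The members and lists were chosen with earlier results of these data known. The text names every called member, the highest member of each subfamily, the receptor-target and steroid, retinoid and vitamin D lists, and where no member was called the 3 with the smallest p; other names were chosen after their values were seen.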

Additional observations from a re-analysis of the deposited data

Results flagged for a closer look

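In 122 sets of 4 or 5 libraries, 1 for each examined gene and group, 6 held a single library far from the others by Dixon's criterion, where chance gives about 1 in 20. Cyp1b1 was at 23.9 normalized counts in M8, against 5.47 to 6.30 in the other LbNOX water livers, and at 16.6 in M3, against 3.596 to 6.36 in the other luciferase water livers. Those are the libraries in which the exocrine pancreas markers were highest, and the part of other cells was not tested. Cyp2b10 was at 250.2 in M3, against 1331 to 1639 in the other luciferase water livers. Cyp2c39 was at 249 in M9, against 358 to 372 in the other LbNOX water livers, and Foxa2 was at 630.0 in M9, against 437 to 461. Cyp4x1 was at 7.04 in M4, against 19.99 to 23.3 in the other luciferase water livers.

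The ethanol effect differed between LbNOX and luciferase livers for 3 of the genes described (limma). The difference, LbNOX minus luciferase, was −5.21 for Cyp2c53-ps (adjusted p = 0.0442), −1.58 for Hlf (adjusted p = 0.0123) and −1.98 for Tiparp (adjusted p = 0.00809) on the log2 scale. The call of Cyp2c53-ps did not hold in most other settings, as given above. All 3 luciferase ethanol libraries lay above all luciferase water libraries for each of these genes, and the LbNOX groups overlapped for Hlf, Tiparp and Cyp2c53-ps.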

How the results depend on the processing

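No paired analysis was possible because the table's columns carry no replicate number. The number of P450 genes called for ethanol in luciferase livers was 5, and 2 in a fit of only those groups, 9 with DESeq2, and 2 to 7 with each library left out. For LbNOX against luciferase after ethanol it was 5, and 11 in a fit of only those groups, 9 with DESeq2, 12 without M3 and M8, and 1 to 6 with each library left out. For ethanol in LbNOX livers it was 0, 2 with DESeq2 and 0 to 0 with each library left out. For LbNOX after water it was 0 in every setting run. For the difference of the ethanol effects it was 1, and 0 with a filter on a mean of 50, 0 with a pseudocount of 0.5, 0 with edgeR, 2 with DESeq2, 3 without M3 and M8, and 0 to 3 with each library left out. All genes called numbered 1052, 611 in the restricted fit and 1646 with DESeq2 for ethanol in luciferase livers. In the same settings they numbered 822, 703 and 1365 for LbNOX after ethanol, with 1179 without M3 and M8. For ethanol in LbNOX livers they numbered 1, and 291 with DESeq2. For the difference they numbered 227 in the main fit, 217 with edgeR, 644 with DESeq2 and 382 without M3 and M8. A filter on a mean of 50 and a pseudocount of 0.5 each gave 219.

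The partner, heme and regulator lists held 51 genes, of which Ahrr and Aldh3a1 were not tested. For ethanol in luciferase livers 7 were called (4 to 8 with each library left out). For LbNOX after ethanol 5 were called (2 to 5), and for the difference 2 (2 to 6). Of all genes tested, 7.75%, 6.06% and 1.67% were called, in the same order. The lists were chosen with earlier results of these data known, so the counts are not an independent test. For ethanol in LbNOX livers 0 of the listed genes were called, 2 with DESeq2 and 1 without M3 and M8. Of all genes tested, 291 were called there with DESeq2 and 116 without M3 and M8. Fits with fewer libraries have fewer residual degrees of freedom, and the cause of these changes between settings was not tested.

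Over the fold changes of the examined genes in all other settings, 6877 stayed on the same side of the threshold, 90 lost a call and 51 gained one. Most of the 285 fold changes of the main fit were not called, so most of the 6877 were results that stayed uncalled. The 90 losses come from the small part that was called, and 6877 does not measure how well calls held. No fold change that was called in either fit changed sign. Changes of sign in fold changes called in neither fit were not counted. Low values are limited by depth, as in the luciferase water livers of Cyp2c53-ps, at 0 to 10.6 normalized counts, and the 11 members not tested reached 10 normalized counts in fewer than 3 libraries.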
